A study of Mus musculus with 6 samples.

Results

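Per1, Sgk1 and Zbtb16 are 3 genes long known as targets of glucocorticoids, and the chromatin around them was examined by DNase-seq in mouse macrophages given lipopolysaccharide (LPS) with or without Dex. The members are all merged DNase I hotspot regions that overlap 1 of 3 fixed mm9 windows by at least 1 bp. The Per1 window is chromosome 11 from 68850000 to 68980000, the Sgk1 window chromosome 10 from 21550000 to 21770000, and the Zbtb16 window chromosome 9 from 48400000 to 48700000. These windows held 49 of the 59069 regions in the genome, 20 at Per1, 12 at Sgk1 and 17 at Zbtb16. Regions are numbered along each window by increasing position.

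All libraries came from primary macrophages grown from the bone marrow of C57BL/6J mice, and every group received LPS, a component of bacterial outer membranes that triggers inflammatory signalling, for 8 h. In the LPS group (2 libraries) the cells received nothing else, in a pre-treated group (2 libraries) Dex came before LPS, and in a late-treated group (2 libraries) it followed only late during that exposure. Neither the dose of Dex, the study's glucocorticoid, nor the interval between the treatments is in the labels. Cells without LPS and cells with Dex but no LPS were not analysed here.

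Glucocorticoids act through the glucocorticoid receptor, a transcription factor that enters the nucleus when it binds the hormone and recognises a palindrome of a pair of half-sites on DNA. Binding often lies far from the gene that responds, and the chromatin there becomes accessible or is already so before the hormone arrives. Per1 encodes a repressor of the circadian clock. Sgk1 encodes a kinase named for its induction by serum and glucocorticoids, which acts on ion channels and survival signalling. Zbtb16 encodes PLZF, a BTB zinc finger repressor known from innate-like lymphocytes and germline stem cells.

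For orientation, the promoter table of RefSeq (GRCm38.p6, windows from 250 bases before to 50 after a start) held 2 entries for Per1 and 6 for Sgk1. The receptor palindrome, AGAACA and TGTTCT with any 3 bases between them, searched on both strands, matched 1 of the 6 Sgk1 windows and neither Per1 window. It occurred in 3 of 32851 promoter windows (0.00913%), while the half-site AGAACA, which the palindrome contains, occurred in 19.0%. In the Sgk1 window below the palindrome fills bases 62 to 76 from the 5′ end, and the E-box CACGTG at bases 5 to 10 overlaps another half-site at bases 9 to 14. The Per1 window below holds an E-box, the site of the clock activators, at bases 85 to 90. E-boxes occurred in 7.15% of windows. Capitals mark these matches, and both windows are shown because they carry the 2 kinds of element for which these genes are known.
Sgk1, chr10:21993640-21993939, plus strand: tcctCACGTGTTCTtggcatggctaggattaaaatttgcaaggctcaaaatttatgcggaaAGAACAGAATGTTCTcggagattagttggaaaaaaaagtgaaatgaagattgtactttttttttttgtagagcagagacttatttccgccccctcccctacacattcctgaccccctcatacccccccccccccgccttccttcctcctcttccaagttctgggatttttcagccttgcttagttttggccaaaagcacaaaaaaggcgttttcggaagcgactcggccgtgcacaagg
Per1, chr11:69098699-69098998, plus strand: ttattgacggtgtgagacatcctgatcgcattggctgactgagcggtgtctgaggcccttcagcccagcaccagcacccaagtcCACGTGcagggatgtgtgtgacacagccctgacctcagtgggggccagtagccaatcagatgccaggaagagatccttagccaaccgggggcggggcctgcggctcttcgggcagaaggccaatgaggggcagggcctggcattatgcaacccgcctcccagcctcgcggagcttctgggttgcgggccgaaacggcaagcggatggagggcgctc
Of the other motifs searched on both strands, AP-1 (TGACTCA) and CRE (TGACGTCA) were in 0 of these 8 windows, as was NF-kB (GGGA, any 4 bases, CC), and a looser palindrome (NGNACA, any 3 bases, TGTNCN), which every match of the first also meets, matched only at that same Sgk1 site. They occurred in 5.20%, 1.79%, 20.7% and 0.472% of all windows, in that order. A match is a description of the letters. The hotspots are in mm9, another build, so promoters were not placed on them, and whether a hotspot lies in a promoter, exon or intron was not determined.

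The Zbtb16 window held the differences that passed a test. Between 48531287 and 48553897, 4 regions were stronger with Dex or listed only with Dex, in both Dex groups. Regions 10 and 11 were tested and called, and regions 6 and 7, listed only with Dex, could not be tested. The bounds of this stretch of 22.6 kb were drawn after the values were seen. Region 11 there had the highest increase with Dex of all 25091 regions that the 6 libraries share. Of the 14 regions tested at Per1 and the 4 at Sgk1, 0 passed the test, and Per1 region 14 came nearest. Over both Dex groups 0.881% of all shared regions were called, so a count of 0 is near that background.

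**Figure D1:**
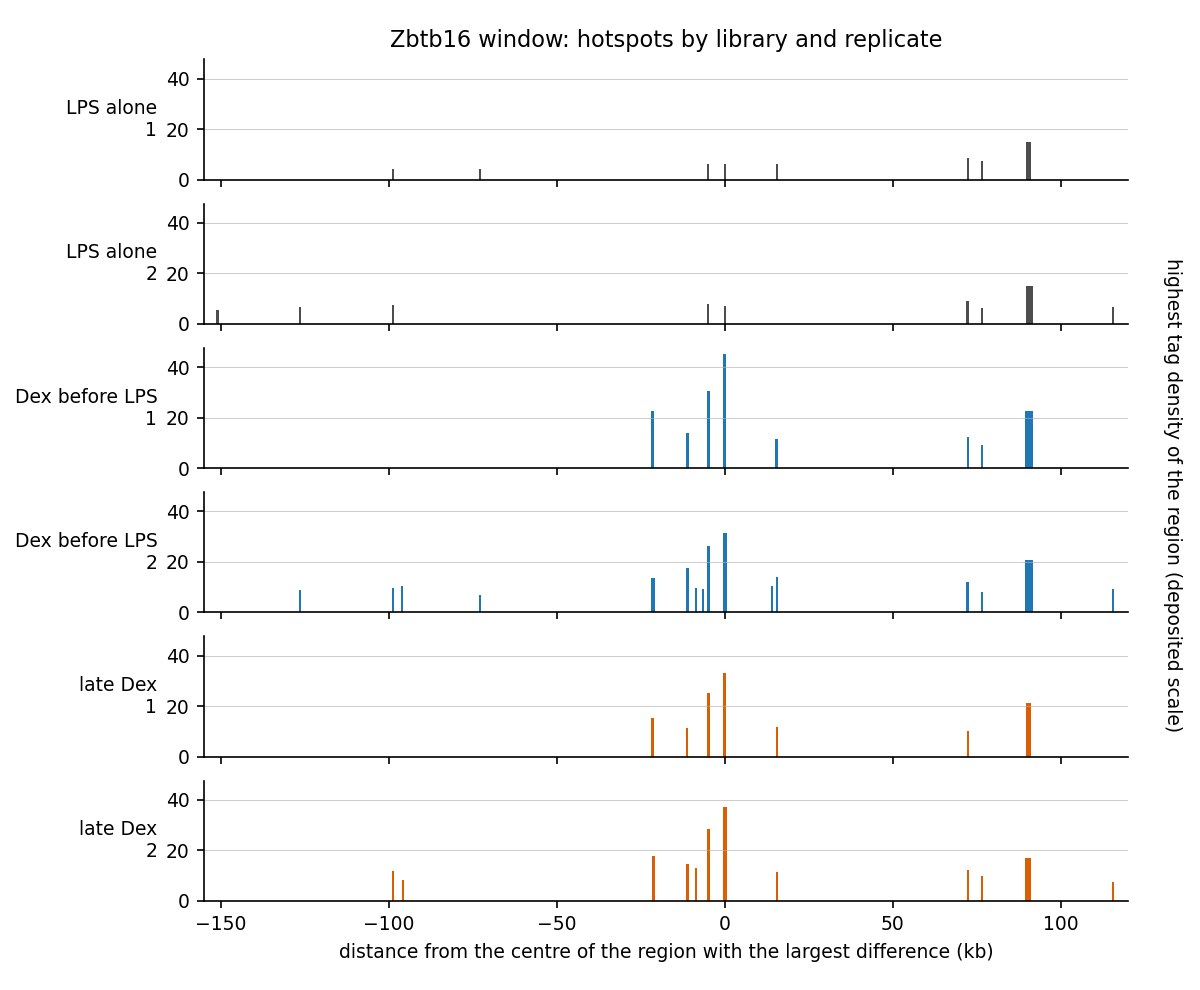
Regions of the Zbtb16 window in each of the 6 libraries. The horizontal axis is the distance in kb from the centre of region 11, the bar height is the highest deposited tag density of the region in that library, and regions narrower than 0.6 kb are drawn 0.6 kb wide. The 4 Dex libraries have tall bars within the 22.6 kb to the left of and at 0, where the LPS libraries have 2 low bars each.

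Region 11, at 48552709 to 48553897, was listed by all 6 libraries. Its maximum tag density was 6.02 and 6.94 with LPS alone, 45.3 and 31.5 with Dex before LPS, and 33.2 and 37.2 with late Dex. Densities are on the authors' deposited scale, whose normalization is not given in the sources used here. All 4 Dex libraries lay above both LPS libraries, with no overlap. Means were 6.48 ± 0.652 (SD, n = 2) for the LPS and 36.8 ± 6.14 (SD, n = 4) for the Dex libraries. For a test, log2 maximum densities were set to 1 distribution across libraries over the 25091 shared regions and fitted with limma. In the pre-treated group region 11 was higher than with LPS alone by 2.47 on the log2 scale (SE 0.25, limma adjusted p = 0.00222), the highest difference of the 25091. The late-treated group was higher by 2.47 as well (SE 0.25, limma adjusted p = 0.00137), the second highest. Both Dex groups share the same LPS libraries, so these values are not independent. Over both Dex groups the difference was 2.47 (95% interval 2.01 to 2.93, limma adjusted p = 0.000355). Within replicate number 1 the differences were 2.72 and 2.39, and within number 2 they were 2.21 and 2.55.

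The hotspot itself was also narrower without Dex. Region 11 spanned 288 and 559 bp in the LPS libraries and 919 to 1148 bp in the 4 Dex libraries. In the LPS lists its z-scores were 8.39 and 12.9, which are ranks 46009 of 48084 and 34115 of 51834. The lists of the Dex libraries held it at z-scores of 60.1, 45.9, 51.6 and 46.6, at ranks 5069 of 34646, 7027 of 44686, 6153 of 29347 and 5688 of 44447. Ranks in lists of different length do not measure a change. In bulk chromatin a larger share of cells with an open site and a more open site in every cell cannot be told apart.

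Region 10, at 48547860 to 48548927, lies with its centre 4.91 kb from that of region 11. Maximum densities were 6.02 and 7.98 with LPS alone, 30.5 and 26.2 with Dex before LPS, and 25.2 and 28.3 with late Dex. Again the Dex libraries did not overlap the LPS libraries. The difference was 1.99 on the log2 scale for the pre-treated group (SE 0.24, limma adjusted p = 0.00255) and 1.98 for the late-treated group (SE 0.24, limma adjusted p = 0.00324). Over both Dex groups it was 1.98 (95% interval 1.55 to 2.42, limma adjusted p = 0.000818), the sixth highest value. Widths were 447 and 615 bp with LPS alone and 870 to 1067 bp with Dex. In both regions the estimates for the 2 timings of Dex were close. Pre-treated minus late-treated was 0.01 for region 10 and -0.01 for region 11 (limma adjusted p = 1 for each), with 95% intervals of -0.49 to 0.52 and -0.53 to 0.52.

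Regions 6 and 7 of the window, at 48531287 to 48532475 and 48541688 to 48542751, were listed by all 4 Dex libraries and by neither LPS library. Region 6 had maximum densities of 22.6 and 13.7 in the pre-treated and 15.2 and 17.7 in the late-treated libraries, at z-scores of 29.5, 22.6, 28.0 and 26.7. In region 7 the densities were 14 and 17.5 in the pre-treated libraries and 11.2 and 14.6 in the late-treated libraries, at z-scores of 26.7, 24.3, 19.8 and 24.1. The LPS lists reached down to z-scores of 7.98 and 8.35, and so reached lower than those of the 4 Dex libraries (8.98 to 11.6), and did not hold either region. This pattern, called Dex-only here, was met by 2 of 17 Zbtb16 regions and by 0.389% of all 59069 regions. When the lists were cut to equal length, the LPS hotspots of regions 10 and 11 fell out and all 4 regions were Dex-only. With the stronger 50% of each list region 7 was not Dex-only, and with a common minimum z-score regions 10 and 11 were not.

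Around these 4 lay weaker regions. Region 8 was listed by replicate 2 of both Dex groups, at densities of 9.49 and 12.8, and region 9 by replicate 2 of the pre-treated group alone, at 9.11. Within the 22.6 kb the LPS lists covered 0.735 and 1.17 kb, the pre-treated lists 3.69 and 5.18 kb, and the late-treated lists 3.35 and 4.51 kb. The Dex libraries again lay above both LPS libraries. The bounds of this stretch were drawn after the values were seen, so this is a description with no test. In the rest of the window coverage was 3.72 and 5.25 kb with LPS alone, 3.93 and 7.47 kb with Dex before LPS, and 2.79 and 4.87 kb with late Dex, which overlap.

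Region 13, at 48568364 to 48569043, showed the same order at a lower level. The LPS lists held it once, in replicate 1, at a density of 6.35, and the Dex libraries had densities of 11.5 and 14 (pre-treated) and 11.6 and 11.5 (late-treated). It was not tested, since replicate 2 of the LPS group did not list it.

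**Figure D2:**
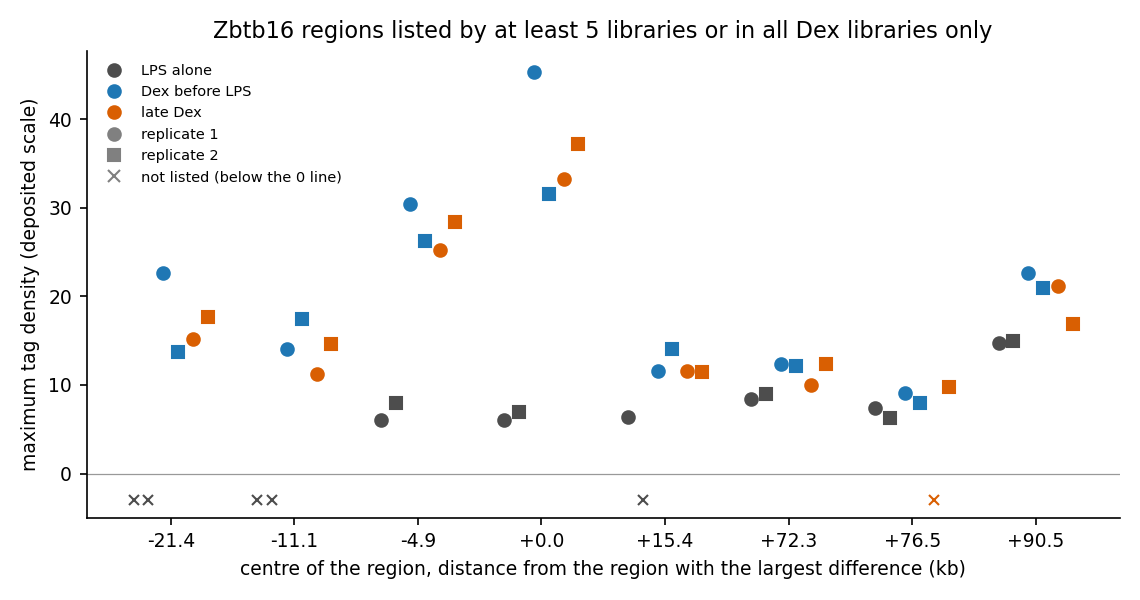
Maximum tag density (deposited scale, linear axis) of 8 Zbtb16 regions in the 6 libraries, ordered by position and labelled with the distance in kb from the centre of region 11. Circles are replicate 1, squares replicate 2, and crosses below the 0 line mark libraries that did not list the region. At 0 kb the LPS libraries are at 6.02 and 6.94 and the Dex libraries between 31.5 and 45.3.

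Elsewhere in the window differences were smaller. In RefSeq's gene order Zbtb16 lies between Nnmt, a nicotinamide methyltransferase, and, past a predicted gene, the serotonin receptor subunit genes Htr3a and Htr3b. Region 16, at 48642604 to 48644933, is the widest of the window and the strongest by mean rank. Its maximum densities were 14.7 and 14.9 with LPS alone, 22.6 and 20.9 with Dex before LPS, and 21.2 and 16.8 with late Dex. The groups did not overlap, but the difference over both Dex groups, 0.45 on the log2 scale (95% interval -0.0046 to 0.90, limma adjusted p = 0.526), did not pass the test. Region 14, at 48625108 to 48626086 and named after its values were seen, gave 8.36 and 9.03 with LPS alone against 10.0 to 12.4 with Dex. The difference was 0.43 (limma adjusted p = 0.532), and it was -0.0042 when z-scores took the place of densities. Of the 4 tested Zbtb16 regions 4 had all Dex libraries above both LPS libraries, a pattern that 8.93% of all shared regions showed, and 2 were called higher, as were 0.63% of shared regions. In the single-group comparisons the same 2 were called, where the share of regions called higher was 0.263% for Dex before LPS and 0.303% for late Dex. Regions called in either direction made up 0.399% and 0.323%, and 0 of the 22 members were called lower in either comparison, where 0.136% and 0.0199% of shared regions were. The other 13 regions of the window were not listed by all 6 libraries and could not enter that test. Beside regions 6 to 9 and 13, these were 8 weak regions with densities of 4.01 to 12. Region 15 was in every list but replicate 1 of the late-treated group, and regions 1 to 5, 12 and 17 were in 1 to 4 lists each, mostly those of replicate 2. In each group replicate 2 had more hotspots in this window than replicate 1.

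At Per1, 14 of 20 regions were listed by all 6 libraries and 0 were Dex-only, against 42.5% and 0.389% of regions in the genome. The window is not Per1 alone. In RefSeq's gene order Per1 stands between Vamp2, a vesicle fusion protein, and Hes7, a Notch-regulated repressor, with Tmem107 and Aloxe3 beyond them, so regions cannot be assigned to Per1 by position in the window. Of the 14 tested regions 0 were called in either direction over both Dex groups, where the share of all shared regions called was 0.881%, so a count of 0 is near that background. Their differences over both Dex groups ran from -0.26 to 0.76 on the log2 scale, with a median of 0.00 where all shared regions had a median of -0.0045.

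Per1 region 14, at 68910187 to 68911357, was picked for description after its values were seen. Its maximum densities were 36.5 and 26.7 with LPS alone, 80.7 and 42.9 with Dex before LPS, and 57.2 and 42.5 with late Dex. All 4 Dex libraries were above both LPS libraries, with means of 31.6 ± 6.88 (SD, n = 2) and 55.8 ± 17.9 (SD, n = 4). The difference was 0.76 on the log2 scale (95% interval 0.27 to 1.25), and it did not pass the test (limma adjusted p = 0.186, unadjusted p = 0.00514). Its size ranked 364 of 25091, counted from the highest. Within replicate number 1 it was 1.01 for the pre-treated and 0.57 for the late-treated library, and within number 2 it was 0.69 and 0.76. Merging hotspots up to 500 bp apart joined it to region 15 and lowered the value to 0.28.

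The 2 regions beside it did not separate the groups once densities were normalized. Region 13, at 68907851 to 68909659, had densities of 53.2 and 31.9 with LPS alone, 63.8 and 45.2 with Dex before LPS, and 68.4 and 43.4 with late Dex. Replicate 1 was higher than replicate 2 in each group, and the LPS library of replicate 1 lay above both Dex libraries of replicate 2. The difference of 0.36 (95% interval -0.11 to 0.84, limma adjusted p = 0.70) did not pass the test. Region 15, at 68911856 to 68913898, followed at 46.5 and 46.9 with LPS alone, 69.6 and 48.6 with Dex before LPS, and 70.0 and 47.4 with late Dex. The deposited densities of the Dex libraries were all above those of the LPS libraries, by little in replicate 2. After normalization the differences were 0.47 and 0.52 within replicate 1 and -0.05 and -0.02 within replicate 2, and the groups overlapped. Region 16, at 68923686 to 68924747, had densities from 19.5 to 26.4, with the LPS libraries at 22.4 and 21.2 inside that range.

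**Figure D3:**
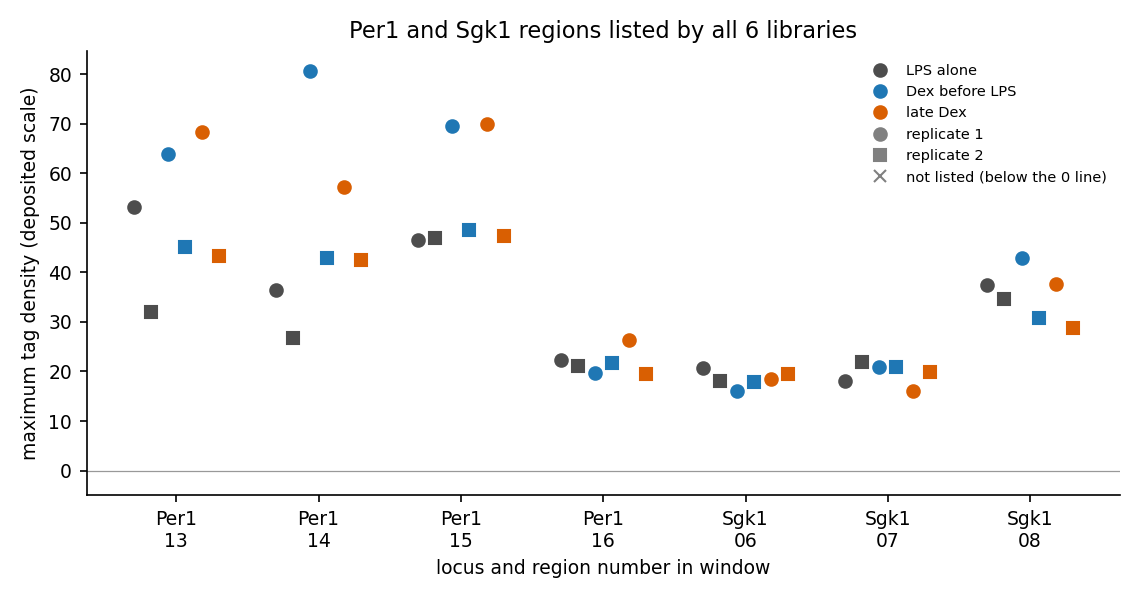
Maximum tag density (deposited scale, linear axis) of Per1 regions 13 to 16 and Sgk1 regions 6 to 8 in the 6 libraries, with circles for replicate 1 and squares for replicate 2. In Per1 region 14 both LPS libraries, at 36.5 and 26.7, are below the 4 Dex libraries, and in the Sgk1 regions the range of all 4 Dex libraries overlaps that of the LPS libraries.

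In the other 4 of the 5 strongest regions of the Per1 window, by mean rank, the range of all 4 Dex libraries overlapped that of the LPS libraries after normalization. Region 7, at 68875555 to 68877745, had densities of 62.5 and 64.6 with LPS alone, 65.5 and 68.7 with Dex before LPS, and 56.4 and 79.7 with late Dex. Regions 2, 10 and 19, at 68853190 to 68855667, 68883761 to 68884794 and 68935667 to 68939286, had differences of -0.04, 0.05 and -0.03 over both Dex groups, and region 7 had 0.02 (limma adjusted p from 0.980 to 0.996). The 95% intervals of these 4 reached from -0.52 to 0.56, so changes of that size are not excluded by these libraries. Region 2 had densities of 85.6 and 78.4 with LPS alone, 87.3 and 76.7 with Dex before LPS, and 79.2 and 90.3 with late Dex. Those of region 10 were 70.9 and 55.5, 78.6 and 73.7, and 58.4 and 62.0 in the same order. In region 10 both pre-treated libraries lay above both LPS libraries, a pattern of 17.4% of shared regions. That difference, 0.19, did not pass the test (limma adjusted p = 0.945).

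The groups' lists differed at weak Per1 regions. Region 12, at 68901809 to 68902303, was listed by both LPS libraries, at z-scores of 12.7 and 8.89, and by none of the Dex libraries. This LPS-only pattern was met by 1 of 20 Per1 regions and 5.18% of all regions. Region 6, at 68874102 to 68874781, was in both LPS lists (z-scores of 10.2 and 14.2) and both pre-treated lists (10.6 and 16.2) but in neither late-treated list. Region 8, at 68879725 to 68880101, was in both pre-treated lists, at 10.7 and 9.83, in replicate 1 of the LPS group, at 8.10, and in neither late-treated list. Regions in both pre-treated and neither late-treated library were thus 2 of 20 here and 1.53% of all, and those in both LPS and neither late-treated library 2 of 20 and 9.22% of all. Listed by both LPS and neither pre-treated library was 1 of 20 (8.48% of all), and by both late-treated and neither pre-treated library 0 of the 49 members (0.35% of all). The list of replicate 1 of the late-treated group began at a z-score of 11.6, above several of these values, while that of replicate 2 began at 8.98. Regions 3, 9 and 18 were each in 1 LPS list, at widths of 266 to 282 bp.

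At Sgk1, 4 of 12 regions were listed by all 6 libraries and 0 were Dex-only, against 42.5% and 0.389% of regions in the genome. Over both Dex groups 0 of the 4 tested regions were called, against 0.881% of shared regions, and their differences were near 0. Both counts of 0 are near the background. RefSeq's gene order places Sgk1 next to Aldh8a1, an aldehyde dehydrogenase, with Hbs1l and Myb beyond it. Region 8, at 21710838 to 21716112, was the widest of the 49 at 5274 bp and the strongest of this window. Maximum densities were 37.5 and 34.7 with LPS alone, 42.8 and 30.8 with Dex before LPS, and 37.6 and 28.8 with late Dex. The groups overlapped, and replicate 1 was the higher in each of them. The difference over both Dex groups was -0.13 on the log2 scale (95% interval -0.60 to 0.34, limma adjusted p = 0.948).

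Regions 6 and 7, at 21666330 to 21667374 and 21695786 to 21696886, were narrower and less dense. Region 6 had densities of 20.7 and 18.1 with LPS alone, 16.1 and 17.8 with Dex before LPS, and 18.4 and 19.5 with late Dex. Region 7 had 18.1 and 21.9, 21.0 and 20.9, and 16 and 19.9 in the same order. In each region the range of the 4 Dex libraries overlapped that of the LPS libraries. In region 6 both pre-treated libraries lay below both LPS libraries, a pattern of 18.3% of shared regions on the normalized scale. The differences of regions 6 and 7 over both Dex groups were -0.09 and -0.05 (limma adjusted p = 0.962 and 0.983). Intervals of 95% ran from -0.51 to 0.33 and from -0.49 to 0.40, so the increases estimated for Zbtb16 regions 10 and 11 lay outside the intervals of these Sgk1 regions. Region 2, at 21609059 to 21609766, gave 0.04 (95% interval -0.46 to 0.55).

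The remaining Sgk1 regions were weak. Region 9, at 21720094 to 21720718, was listed by both pre-treated libraries, at densities of 6.18 and 11.8 and z-scores of 10.2 and 14.5, and by no other library. It was the single Sgk1 region of 12 in both pre-treated and neither LPS library, a pattern of 0.957% of all regions. Region 9 was also the single one in both pre-treated and neither late-treated library, a pattern of 1.53% of all regions. Region 11, at 21756086 to 21756545, was LPS-only, at z-scores of 10.9 and 9.62. This pattern was met by 1 of 12 Sgk1 regions and 5.18% of all regions. Region 1, at 21566644 to 21567453, was in every list except replicate 1 of the late-treated group, at z-scores of 11 to 21.3. Its densities were 10.03 and 10.07 with LPS alone, 7.41 and 8.73 with Dex before LPS, and 8.86 in replicate 2 with late Dex. The listed Dex values were thus all below both LPS values, and the region was not tested. With the stronger 50% of each list region 1 was LPS-only. Region 3 was in the same lists, and its densities overlapped between the LPS and Dex libraries. Regions 4, 5 and 12 were each in replicate 2 of the LPS group alone, region 4 at a density of 9.72, and region 10 in replicate 2 of the late-treated group alone.

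**Figure D4:**
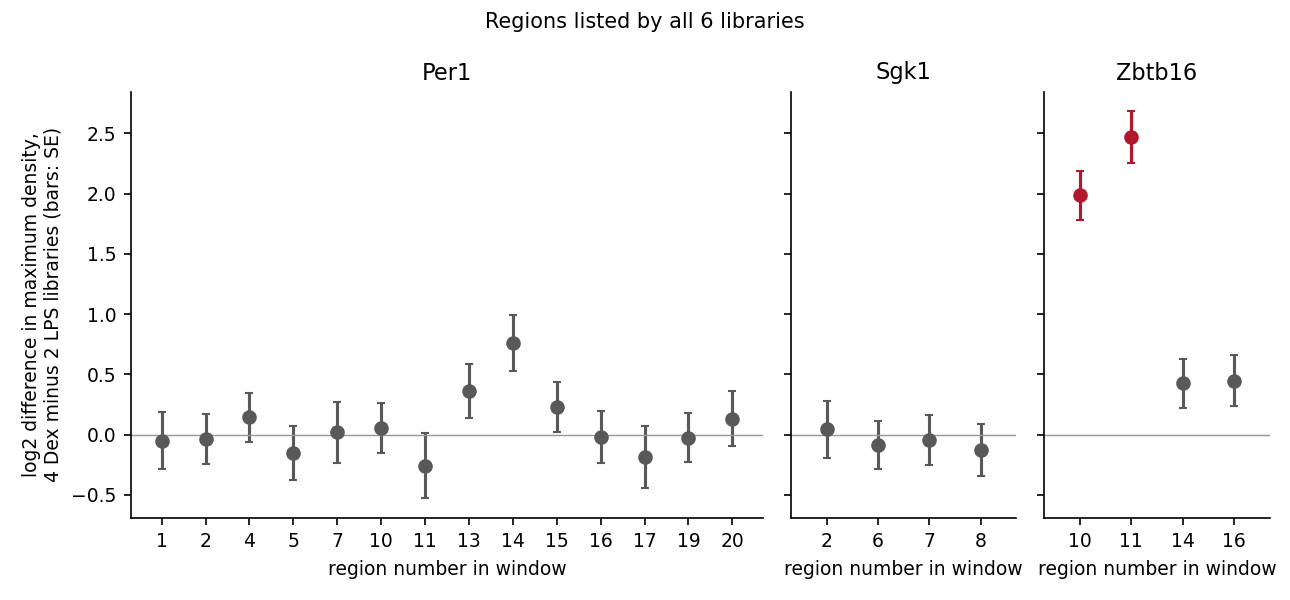
Difference in quantile-normalized log2 maximum density between the 4 Dex and the 2 LPS libraries for the 22 regions listed by all 6 libraries, by locus, with the standard error from limma as bars. Red points, Zbtb16 regions 10 and 11 at 1.98 and 2.47, have an adjusted p under 0.05, and the other 20 lie between -0.26 and 0.76.

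Summed over a window, the lists gave no difference that a test could call. The Per1 window held 18 and 18 hotspots with LPS alone, 18 and 17 with Dex before LPS, and 16 and 15 with late Dex. At Sgk1 the lists held 9 and 11, 9 and 7, and 5 and 8 hotspots in the same order, and at Zbtb16 8 and 10, 9 and 17, and 7 and 12. Covered length at Zbtb16 was 5.44 ± 1.39 kb with LPS alone, 10.1 ± 3.56 kb with Dex before LPS and 7.76 ± 2.29 kb with late Dex (SD, n = 2 each). At Per1 it was 22.5, 21.1 ± 1.61 and 19.5 ± 1.70 kb, both LPS libraries having the same total, and at Sgk1 10.2 ± 1.06, 8.39 ± 1.97 and 7.44 ± 2.17 kb. Mean coverage over the 4 Dex libraries was thus 3.50 kb higher at Zbtb16 than with LPS alone (exact two-sided permutation p = 0.267), and at Per1 and Sgk1 it fell by 2.22 and fell by 2.24 kb (p = 0.2 each). A comparison of 2 with 2 libraries cannot give a p below 0.333, nor one of 4 with 2 a p below 0.0667, and a call at 0.05 was out of reach for all 24 exact tests. Their Benjamini-Hochberg adjusted p ran from 0.571 to 1. The direction of the Per1 counts depended on list length. With lists of equal length the Dex libraries held 1.5 hotspots more on average, and their coverage fell by 0.965 kb. At Zbtb16 the same lists gave means of 8.75 hotspots with Dex and 2.5 with LPS alone, a difference of 6.25 where the full lists gave 2.25, and 5.17 kb more coverage (exact two-sided permutation p = 0.0667 for each, the smallest possible).

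**Figure D5:**
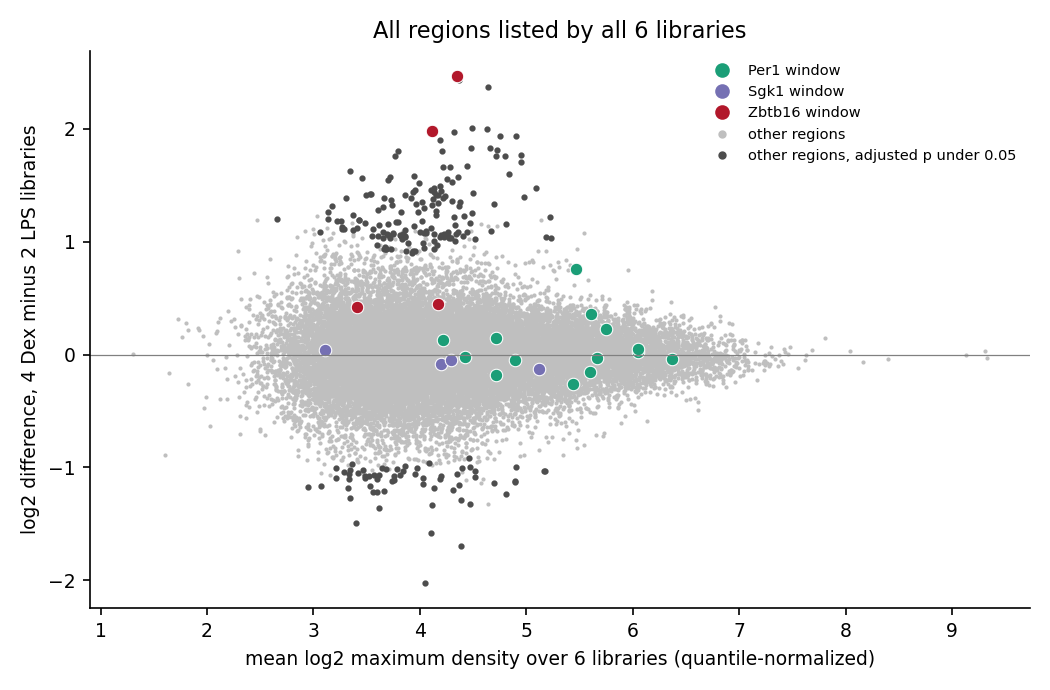
Difference in log2 maximum density (4 Dex minus 2 LPS libraries) against the mean log2 level for all 25091 shared regions, with the members in colour. Dark points are other regions with an adjusted p under 0.05. Zbtb16 region 11 is the highest point, at 2.47, and region 10 is at 1.98, while the Per1 and Sgk1 points lie within the grey cloud or at its edge.

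Over the genome 221 of 25091 shared regions (0.881%) were called between both Dex groups and LPS alone, 158 higher and 63 lower. Of the 49 members 22 could be tested and 27 could not, since at least 1 library did not list them. Among the 22, 2 were called higher and 0 lower, where the share called lower was 0.251%. The Dex libraries were all above both LPS libraries in 5 of the 22, 4 at Zbtb16 and 1 at Per1, a pattern of 8.93% of shared regions. They were all below in 0, a pattern seen in 9.15% of shared regions. Between pre-treated and late-treated libraries limma called none of the 22. The smallest adjusted p over them was 1, and over all shared regions limma called 0 (0%), with 795 at an unadjusted p under 0.05. The windows' edges decide which regions are counted, and so which are the 5 strongest of a window. The Per1 window starts between region 1, which begins 185 bp inside at z-scores of 20.0 to 35.2, and a region that ends at 68849975, 25 bp outside, at 18.9 to 27.3. Just before the Sgk1 window a region at 21546450 to 21547740 had z-scores of 43.7 to 60.8 in all 6 libraries, and the first region inside had 11 to 21.3.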

How the data were processed

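DNase-seq libraries of 6 samples in 3 groups of 2 were used. The labels' protocols describe DNase I digestion of nuclei (80 U/ml, 3 min, 37 °C), selection of fragments between 100 and 500 bp, and 51 bp reads. The submitters' processing notes name CASAVA and mm9. The sources used here do not give the aligner, hotspot caller, calling threshold or scaling. Every deposited file lists the hotspots of 1 library, called per library, with no pooled list. The deposited signal values are maximum and average tag densities, the deposited score is a z-score and the deposited p-value is not stated to be adjusted, per the file headers. Lists held 29347 to 51834 hotspots; tag totals are unknown. Positions are printed as deposited.

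Hotspots overlapping by at least 1 bp were merged over the 6 libraries, and a region takes the highest density, z-score and percentile of its hotspots in a library. Regions listed by all 6 (25091) were tested with limma 3.58.1 (R 4.3.3) on log2 maximum density, quantile-normalized over these regions, with a spread shared by 3 groups, a trended prior and Benjamini-Hochberg adjustment at 0.05. The fit was tested on simulated data with 200 of 25091 regions changed between both Dex groups and LPS alone. It called 77% of those changed by 1 on the log2 scale, 100% of those changed by 2 and 0% of those changed by 0.585. The simulated noise was independent between libraries, while real libraries of the same number deviated together (r from 0.437 to 0.497). These shares therefore describe the simulation and do not give what was detectable in these data. The false share of calls was 0.0435 for a change of 1 and 0.0826 for a change of 2, the latter above 0.05. Hotspot numbers and covered length were compared by exact two-sided permutation tests. Whether replicates are separate mice or cultures is not stated in the labels. The p-values and SDs therefore cover only library-to-library spread, which may be technical.

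Regions named by a fixed rule were those exclusive between groups, the 5 strongest of a window by mean within-list percentile of z-score, and those called by limma. For some of them only z-scores or a single density are printed. All other regions named were chosen after their values were seen. The members, lists and tests were chosen with earlier results of these data known. Promoter sequences are RefSeq's (GRCm38.p6), with 2 of 3 genes matched. No gene positions in mm9 were used, so macrophage marker genes and other glucocorticoid-induced genes were not analysed here.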

Additional observations from a re-analysis of the deposited data

Results flagged for a closer look

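Per1 region 19, at 68935667 to 68939286, was flagged for its order on the normalized scale. Both pre-treated libraries were below both LPS libraries, and both late-treated libraries were above both LPS libraries. Each separation alone was common, with 18.3% of shared regions lower in the pre-treated group and 16.5% higher in the late-treated group. Pre-treated libraries were below late-treated libraries in 13.3% of shared regions. Pre-treated minus late-treated was -0.47 on the log2 scale (SE 0.23), which ranked 24252 of 25091 counted from the highest. The difference did not pass the test (limma adjusted p = 1, unadjusted p = 0.0648). Its deposited densities, 50.8 and 48.6 with LPS alone, 50.2 and 39.1 with Dex before LPS, and 66.8 and 52.3 with late Dex, overlap between the LPS and pre-treated groups. With 2 libraries a group, single libraries that stand apart were not looked for.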

How the results depend on the processing

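The calls of Zbtb16 regions 10 and 11 held under every alternative that could test them. Over both Dex groups their log2 differences ran from 1.78 to 2.17 and from 2.18 to 2.58 (limma adjusted p at most 0.0161 and 0.00865). With lists of equal length neither could be tested, since the LPS lists no longer held them, and the Zbtb16 window then had 4 Dex-only regions. With the stronger 50% of each list or a common minimum z-score the window had 3 of them, and without 1 library at a time 2 to 3. The LPS-only regions were less stable: with lists of equal length or a common minimum z-score Per1 and Sgk1 had 0, Per1 also had 0 with the stronger 50% of each list, and without 1 library Per1 had 1 to 3, Sgk1 1 to 4 and Zbtb16 0 to 1.

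The Per1 hotspot difference changed sign with lists of equal length (2 for the pre-treated, 1 for the late-treated and 1.5 for both groups) and with a common minimum z-score (0.5, 0.5 and 0.5). Leaving out 1 library moved the late-treated difference in Zbtb16 hotspots from -2 (without replicate 2) to 3 (without replicate 1), and pre-treated minus late-treated from -0.5 to 7.5 hotspots and from -0.138 to 4.89 kb. At Sgk1 that last difference ran from -0.585 to 2.49 kb.

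Regions called over the genome depended on the setting. For the pre-treated, late-treated and both groups against LPS alone, limma called 17, 15 and 34 with lists of equal length, 33, 37 and 120 with average density, 18, 20 and 48 without normalization, and 21, 20 and 53 with median centring. With z-scores the late-treated count was 132. Without 1 library the counts were 17 to 180, 11 to 109 and 32 to 245, each lowest without LPS replicate 2, and 0 to 1 between the Dex groups. Without LPS replicate 1 they were 35, 32 and 65. The cause was not tested.

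With the replicate number as a block (replicate block) the counts were 1458, 1162 and 1799, and 30 between the Dex groups. Over both Dex groups Per1 region 14 passed (0.76, limma adjusted p = 1.98e-05), while the calls over both Dex groups stayed as they were for Per1 regions 2, 7, 10, 13, 15 and 19, Sgk1 regions 6, 7 and 8, and Zbtb16 regions 10, 11, 14 and 16. Libraries with the same number deviated together (r from 0.437 to 0.497 over 25091 regions), but with 2 numbers and no statement in the labels they are not taken as pairs.

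Differences near 0 changed sign over both Dex groups. Sgk1 region 7 was 0.12 with z-scores and -0.21 to 0.13 without 1 library. Per1 region 2 was 0.022 without normalization, 0.036 with median centring and -0.18 to 0.11 without 1 library. Region 7 there was -0.18 with z-scores, -0.068 with average density and -0.20 to 0.23 without 1 library. Region 10 was -0.0064 with average density and -0.063 to 0.17 without 1 library, and region 19 was 0.042, 0.056 and -0.16 to 0.12 in the order of region 2. Zbtb16 region 14 was -0.0042 with z-scores. Tag totals are unknown, so the depth behind each density cannot be given.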
